A study of Mus musculus with 3 samples.

Results

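The genes described here are 41 genes of the hypoxia response and of glycolysis, chosen by name out of 21887 protein-coding genes. They comprise 7 genes of oxygen sensing, 12 targets of the hypoxia-inducible factors (HIF), 15 enzymes of glycolysis including lactate dehydrogenase, and 7 genes of glucose and lactate transport and of the switch between fuels. Their chromatin accessibility was profiled by single-cell ATAC-seq, an assay that cuts open DNA with the Tn5 transposase and counts the fragments of each barcoded nucleus. The series concerns mouse gliomas made by in utero electroporation with piggyBac, a transposon that carries plasmid DNA into the genome of cells in the embryonic brain. There was 1 library of overexpression of PDGFB-WT, 1 library of overexpression of PDGFB-NLS and 1 Control library. PDGFB is a ligand of the platelet-derived growth factor receptors, and NLS is not spelled out in the labels. All 3 libraries, Control included, carried the tissue label glioma, while the deposited names of the Control data hold the word Normal. The labels do not settle whether Control was itself a tumor. The strain and age of the animals, the number pooled, the promoter that drives PDGFB and any other allele or plasmid are not stated in the labels or files. Each group was 1 library, so differences have no replicate check and no test between conditions could be made.

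Cells sense oxygen through prolyl hydroxylases encoded by Egln1, Egln2 and Egln3. While oxygen is present these enzymes hydroxylate the HIF alpha subunits, encoded by Hif1a and Epas1, and the von Hippel-Lindau protein (Vhl) then marks the subunits for degradation. When oxygen is scarce the alpha subunits persist, pair with the subunit encoded by Arnt, and bind short DNA motifs, ACGTG or GCGTG, at genes for blood vessel growth, mitophagy, glucose uptake and glycolysis. Hypoxic zones and high glycolytic flux are well known features of malignant glioma. Accessible chromatin at a start site is a state of the DNA and not a measure of transcription or of flux.

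The libraries differed in depth and in the nuclei they held. PDGFB-WT had 7441 barcodes with a median of 821 counts, PDGFB-NLS had 10996 with a median of 2767.5 and Control had 2226 with a median of 13054. The authors' peaks were called in each library apart, so a gene with no called peak has an unknown count there and is given as 0 CPM. CPM is the count scaled to a total of 1000000 counts in the 47450 regions called in all 3 libraries, and 3 counts correspond to 0.445 CPM in PDGFB-WT, 0.122 CPM in PDGFB-NLS and 0.116 CPM in Control. Between 22 and 118 barcodes were shared by a pair of libraries. Summed over the 12 markers of oligodendrocyte precursor cells (OPC), the level was 937 CPM in PDGFB-WT, 899 CPM in PDGFB-NLS and 611 CPM in Control. The 12 oligodendrocyte markers summed to 437 CPM in PDGFB-WT, 776 CPM in PDGFB-NLS and 919.7 CPM in Control. The 12 endothelial markers summed to 189.7 CPM in PDGFB-WT, 396 CPM in PDGFB-NLS and 508 CPM in Control, and 4 of them (Cldn5, Esam, Sox17 and Ly6c1) had no called peak in PDGFB-WT. The 12 microglia or macrophage markers summed to 533 CPM in PDGFB-WT, 729 CPM in PDGFB-NLS and 839.9 CPM in Control, with no called peak at Aif1 and Trem2 in PDGFB-WT. The 12 astrocyte markers summed to 688 CPM in PDGFB-WT, 716 CPM in PDGFB-NLS and 558 CPM in Control, with no called peak at Gja1 in PDGFB-WT.

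Promoter sequences of 37 of the 41 genes were available from RefSeq on build GRCm38.p6, the assembly named mm10, as 52 windows of 250 bases before to 50 bases after a listed start. The 8 windows printed here belong to genes that the results turn on: the lactate dehydrogenase and phosphoglycerate kinase genes, the hexokinase and glucose transporter genes, the mitophagy and lipid droplet genes, and a sensor and a subunit of the HIF pathway. Capitals mark each ACGTG or GCGTG on either strand, so CACGT and CACGC are capitals too, and a CACGTG, also known as an E-box, holds ACGTG on both strands. The Ldha window lies at chr7:46845554-46845853 on the plus strand, Pgk1 at chrX:106186850-106187149 on the plus strand, Hk2 at chr6:82774405-82774704 on the minus strand, Slc2a1 at chr4:119108495-119108794 on the plus strand, Bnip3 at chr7:138909457-138909756 on the minus strand, Hilpda at chr6:29272376-29272675 on the plus strand, Egln1 at chr8:124949205-124949504 on the minus strand and Hif1a at chr12:73907617-73907916 on the plus strand.
Ldha: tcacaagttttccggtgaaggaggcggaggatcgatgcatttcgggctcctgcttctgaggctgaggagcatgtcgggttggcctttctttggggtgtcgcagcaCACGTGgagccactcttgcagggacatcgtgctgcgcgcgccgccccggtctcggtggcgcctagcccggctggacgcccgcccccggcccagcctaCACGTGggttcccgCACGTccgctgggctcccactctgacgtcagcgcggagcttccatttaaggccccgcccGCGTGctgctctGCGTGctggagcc
Pgk1: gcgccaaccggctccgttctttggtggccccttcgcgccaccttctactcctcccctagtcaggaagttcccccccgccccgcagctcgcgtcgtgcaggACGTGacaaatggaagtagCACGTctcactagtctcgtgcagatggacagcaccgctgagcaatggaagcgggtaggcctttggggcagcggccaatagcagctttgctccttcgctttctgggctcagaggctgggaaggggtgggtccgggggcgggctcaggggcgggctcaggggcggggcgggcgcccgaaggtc
Hk2: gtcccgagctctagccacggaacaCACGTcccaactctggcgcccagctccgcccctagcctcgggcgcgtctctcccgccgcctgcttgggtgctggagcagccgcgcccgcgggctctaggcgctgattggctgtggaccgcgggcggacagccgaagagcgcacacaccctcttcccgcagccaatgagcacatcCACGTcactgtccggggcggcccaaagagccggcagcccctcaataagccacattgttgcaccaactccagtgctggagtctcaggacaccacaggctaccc
Slc2a1: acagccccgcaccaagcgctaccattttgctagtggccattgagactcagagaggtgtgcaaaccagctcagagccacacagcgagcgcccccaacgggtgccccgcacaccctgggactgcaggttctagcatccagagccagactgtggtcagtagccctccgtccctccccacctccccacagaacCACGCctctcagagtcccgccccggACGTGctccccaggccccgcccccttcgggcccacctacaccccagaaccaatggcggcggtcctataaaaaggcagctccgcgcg
Bnip3: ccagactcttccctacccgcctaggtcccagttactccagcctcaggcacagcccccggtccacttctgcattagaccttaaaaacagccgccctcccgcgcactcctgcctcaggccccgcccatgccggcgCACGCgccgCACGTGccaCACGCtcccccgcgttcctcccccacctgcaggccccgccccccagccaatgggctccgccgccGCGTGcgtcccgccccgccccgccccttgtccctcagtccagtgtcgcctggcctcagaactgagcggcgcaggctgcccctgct
Hilpda: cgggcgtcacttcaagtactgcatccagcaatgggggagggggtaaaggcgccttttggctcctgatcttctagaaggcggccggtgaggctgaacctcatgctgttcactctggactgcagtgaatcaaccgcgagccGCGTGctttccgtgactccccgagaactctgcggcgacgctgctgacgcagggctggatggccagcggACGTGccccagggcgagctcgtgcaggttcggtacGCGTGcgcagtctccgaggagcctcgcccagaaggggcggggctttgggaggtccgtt
Egln1: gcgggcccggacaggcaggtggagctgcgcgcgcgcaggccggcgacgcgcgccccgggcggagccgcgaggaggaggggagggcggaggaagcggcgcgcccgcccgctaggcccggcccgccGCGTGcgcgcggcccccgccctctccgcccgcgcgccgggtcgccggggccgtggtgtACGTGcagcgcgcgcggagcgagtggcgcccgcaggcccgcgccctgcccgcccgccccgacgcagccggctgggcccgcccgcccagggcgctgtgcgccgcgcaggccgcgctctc
Hif1a: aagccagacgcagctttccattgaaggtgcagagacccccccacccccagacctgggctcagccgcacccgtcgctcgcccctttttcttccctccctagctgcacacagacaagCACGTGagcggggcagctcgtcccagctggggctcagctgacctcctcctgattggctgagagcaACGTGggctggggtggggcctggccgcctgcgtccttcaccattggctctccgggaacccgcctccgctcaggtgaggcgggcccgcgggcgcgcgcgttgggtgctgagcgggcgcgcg

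The Ldha window held 7 matches, 5 of ACGTG and 2 of GCGTG, and the Bnip3 window held 5. Hilpda and Hif1a held 3 each, and the Pgk1, Hk2, Slc2a1 and Egln1 windows held 2 each. At least 1 match of either motif was present in 41 of the 52 windows (78.8%), against 14380 of 32851 windows of all genes (43.8%). ACGTG alone was present in 28 of the 52 (53.8%), against 19.6% of all windows. By role, a match was present in 6 of 7 oxygen sensing windows, 10 of 12 HIF target windows, 18 of 25 windows of glycolytic enzymes and 7 of 8 windows of transport and fuel switch genes. The members' windows were also richer in the dinucleotide CG that both motifs contain, with a median of 20.5 CG per window against 7 over all windows. A match is a description of these letters and not evidence of binding.

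At gene ends, the members' chromatin was on balance slightly less open in PDGFB-WT than in Control, relative to other genes, and close to Control in PDGFB-NLS. For this measure, counts of peaks within 1000 bp of either end of a gene were summed, and a gene was compared where both libraries held at least 100 counts. Some end peaks count for a neighbouring gene too. Senp1 shares with Pfkm, Spsb2 and Usp5 with Tpi1, Iffo1 with Gapdh and Lrrc23 with Eno2. Likewise Gramd2 shares with Pkm, Csnk1d with Slc16a3 and Ucn2 with Pfkfb4. Each ratio is a log2 ratio of CPM minus the median of all genes compared, which was -0.17 for PDGFB-WT over Control, -0.01 for PDGFB-NLS over Control and 0.14 for PDGFB-NLS over PDGFB-WT. Values in parentheses after a ratio are 95% counting intervals, which cover counting error within these libraries only. A gene was counted as higher or lower when it stood at least 0.32 from that median on the log2 scale, which is the fold limit used throughout. In bulk sums such as these, fewer nuclei of a type and less accessibility per nucleus cannot be told apart.

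Between PDGFB-WT and Control, 33 members were compared, with a median log2 ratio of -0.14, and 9 lay above and 24 below the all-gene median. Of these, 2 members (6.06%) were counted as higher and 5 (15.2%) as lower, against 14.1% and 11.8% of the 10858 genes compared. The 2 higher were Egln1 and Slc2a3, and the 5 lower were Ndrg1, Bnip3, Hilpda, Pgk1 and Slc2a1. Between PDGFB-NLS and Control, 35 members were compared with a median of -0.03, and 0 were counted as higher and 0 as lower, against 12.4% and 6.38% of 13471 genes. Between PDGFB-NLS and PDGFB-WT, 33 members had a median of 0.13, and 7 (21.2%) were higher and 2 (6.06%) lower, against 10.9% and 11% of 10864 genes. The 7 higher were Hilpda, Ndrg1, Bnip3, Hk2, Slc16a1, Pgk1 and Pdk1, and the 2 lower were Slc2a3 and Egln1. Over regions called in all 3 libraries only, 2 members were higher and 6 lower for PDGFB-WT over Control, against 14.2% and 10.2% of 10802 genes, with Epas1 added to those lower. Egln1 stayed among the 2 higher, as these regions still hold a second peak near its start that was not called in Control. In the same regions 1 was higher (Hk2) and 2 lower (Slc16a3 and Ndrg1) for PDGFB-NLS over Control, against 10% and 4.64% of 12488 genes. For PDGFB-NLS over PDGFB-WT 7 were higher and 2 lower there, against 8.83% and 10.7% of 10808 genes, with Pfkl in place of Hk2. The share lower for PDGFB-WT over Control, 15.2%, was near the 11.8% of all genes. The comparisons share libraries, so the PDGFB-WT library enters both those in which the members' median lay farther from that of all genes. PDGFB-WT had the lowest CPM of the 3 libraries at 26 of the 33 members compared in all (78.8%), against 65.6% of 10849 genes, and Control the highest at 19 (57.6%), against 47.8%.

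By role, the medians for PDGFB-WT over Control were -0.13 for oxygen sensing, -0.12 for HIF targets, -0.20 for glycolytic enzymes and -0.25 for transport and fuel switch genes. In PDGFB-NLS over Control they were -0.12, -0.06, 0.02 and 0.03 in the same order, and in PDGFB-NLS over PDGFB-WT -0.01, 0.08, 0.17 and 0.27. Each of these groups holds between 5 and 13 compared genes.

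**Figure D1:**
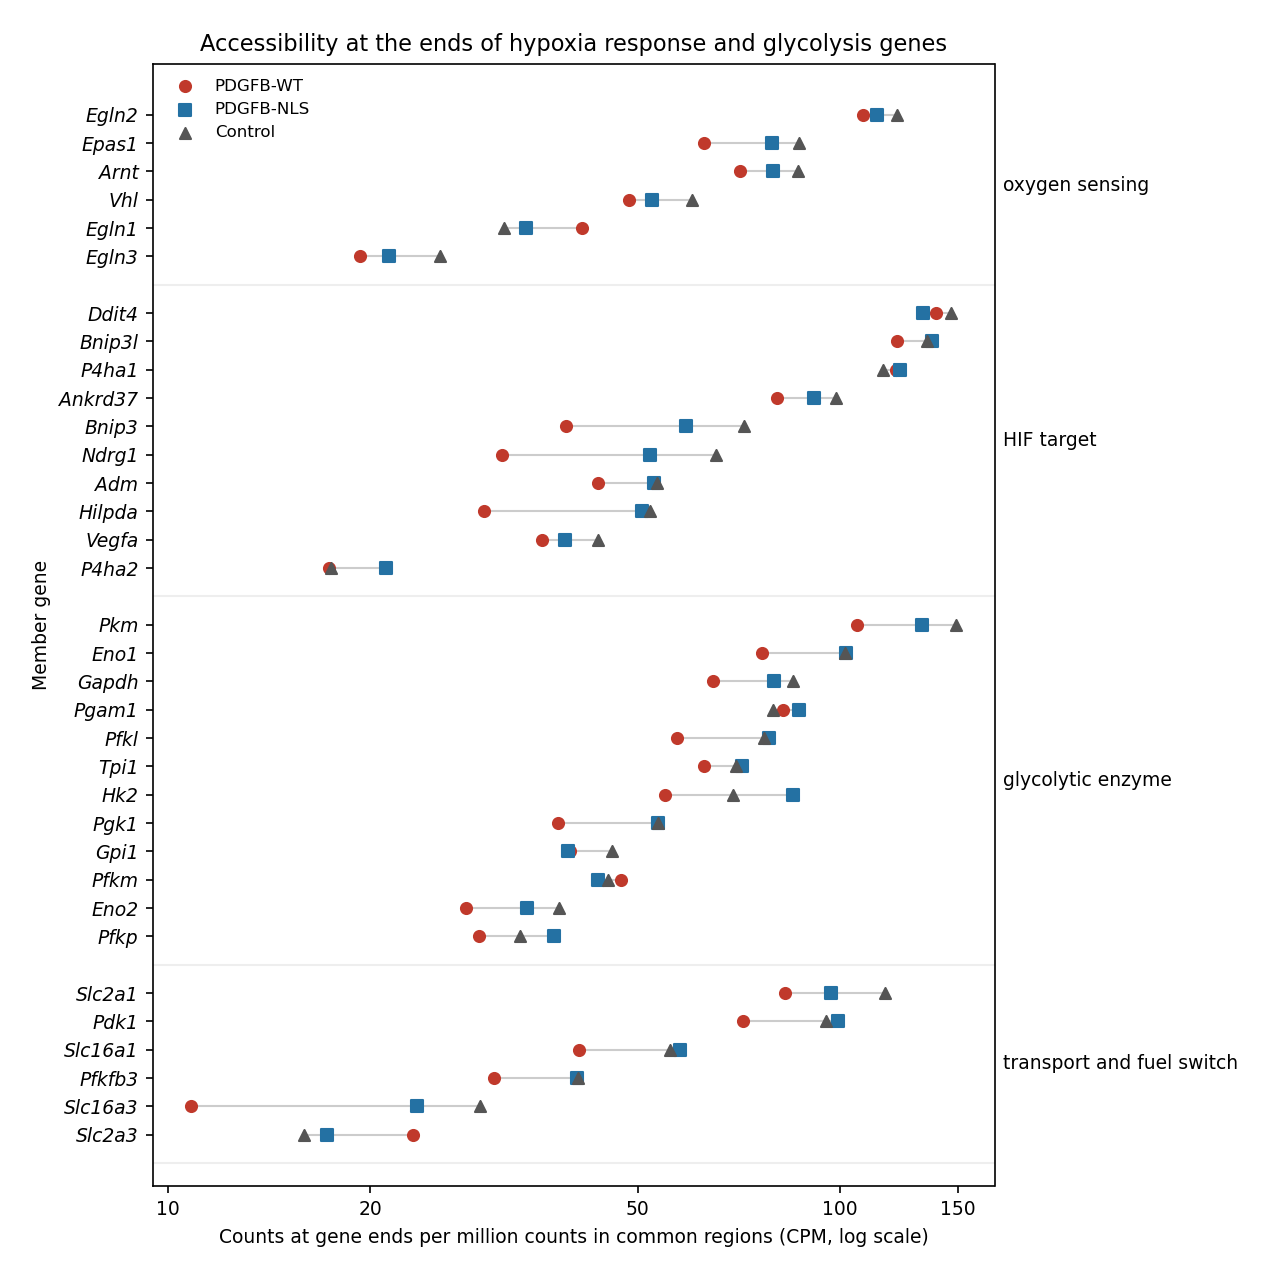
CPM at gene ends (log scale) of each member with a called peak in all 3 libraries, in PDGFB-WT, PDGFB-NLS and Control, grouped by role. Points of a gene mostly lie close together. Ndrg1, Bnip3, Hilpda and Slc16a3 have their PDGFB-WT point well below the others. A gene that lacks a called peak in some library is left out.

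Among the oxygen sensing genes most differences were small. Epas1, which encodes the HIF alpha subunit known from endothelial cells, had 62.7 CPM in PDGFB-WT, 79.3 CPM in PDGFB-NLS and 87 CPM in Control, lowest in PDGFB-WT. Its log2 ratio was -0.31 (-0.52 to -0.10) for PDGFB-WT over Control, -0.12 (-0.25 to 0.0015) for PDGFB-NLS over Control and 0.20 (-0.02 to 0.41) for PDGFB-NLS over PDGFB-WT, inside the fold limit in each. A weak far-end peak was not called in Control, and over the peak called in all 3 libraries the ratio for PDGFB-WT over Control was -0.39 (-0.61 to -0.18), past the limit. Arnt, which encodes the shared beta subunit, had 71.1 CPM in PDGFB-WT, 79.6 CPM in PDGFB-NLS and 86.7 CPM in Control. Its ratio for PDGFB-NLS over PDGFB-WT was 0.02 (-0.18 to 0.23). Vhl, which encodes the recognition subunit of the ubiquitin ligase, had 48.5 CPM in PDGFB-WT, 52.6 CPM in PDGFB-NLS and 60.2 CPM in Control. The Vhl ratio for PDGFB-NLS over Control was -0.18 (-0.33 to -0.03), a small difference on the lower side.

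The hydroxylase genes did not move together. Egln1, which encodes the main HIF hydroxylase under normal oxygen, had 41.3 CPM in PDGFB-WT, 34.1 CPM in PDGFB-NLS and 31.6 CPM in Control, highest in PDGFB-WT. That is a log2 ratio of 0.55 (0.28 to 0.83) for PDGFB-WT over Control and -0.42 (-0.69 to -0.15) for PDGFB-NLS over PDGFB-WT, or 1.47-fold higher and 1.34-fold lower. The ratio of PDGFB-NLS over Control was 0.12 (-0.07 to 0.31). A second peak close to the promoter peak held 9.19 CPM in PDGFB-WT and 6.11 CPM in PDGFB-NLS and was not called in Control, so it enters the PDGFB-WT sum and not that of Control. The promoter peak alone held 32.2 CPM in PDGFB-WT, 28 CPM in PDGFB-NLS and 31.6 CPM in Control, close between PDGFB-WT and Control and lowest in PDGFB-NLS. The second peak falls in a region called in all 3 libraries, so sums over such regions still hold it. Their ratio of 0.54 (0.26 to 0.81) for PDGFB-WT over Control is therefore not that of the promoter peak alone. Egln2, the hydroxylase gene with peaks at both its ends, had 108 CPM in PDGFB-WT, 114 CPM in PDGFB-NLS and 122 CPM in Control. Its ratios were -0.0041 (-0.17 to 0.16) for PDGFB-WT over Control, -0.09 (-0.19 to 0.01) for PDGFB-NLS over Control and -0.07 (-0.24 to 0.09) for PDGFB-NLS over PDGFB-WT. Egln3, itself a HIF target in many cells, had 19.3 CPM in PDGFB-WT, 21.3 CPM in PDGFB-NLS and 25.4 CPM in Control. Its ratios were -0.23 (-0.63 to 0.15) for PDGFB-WT over Control, -0.24 (-0.48 to -0.01) for PDGFB-NLS over Control and 0.0006 (-0.39 to 0.41) for PDGFB-NLS over PDGFB-WT, lower in both PDGFB libraries than in Control, with an interval that spans 0 for PDGFB-WT. Hif1a had a called peak near its annotated ends only in Control, with 59 counts, and is described at its listed start further on.

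The HIF targets held the members with the largest differences. Ndrg1, a hypoxia-responsive gene that is also abundant in myelinating cells, had 31.4 CPM in PDGFB-WT, 52.1 CPM in PDGFB-NLS and 65.4 CPM in Control, lowest in PDGFB-WT and highest in Control. Its log2 ratio was -0.89 (-1.19 to -0.61) for PDGFB-WT over Control, which is 1.85-fold lower. The ratio of PDGFB-NLS over Control was -0.32 (-0.46 to -0.17), just inside the limit, and that of PDGFB-NLS over PDGFB-WT 0.59 (0.30 to 0.89). The oligodendrocyte and endothelial marker sums given above ran in the same order of libraries as Ndrg1, and their part in this difference was not tested over whole libraries. Bnip3, which encodes a mitochondrial receptor for mitophagy, had 39.1 CPM in PDGFB-WT, 59 CPM in PDGFB-NLS and 71.9 CPM in Control in a single start peak. Its ratios were -0.71 (-0.98 to -0.45) for PDGFB-WT over Control (1.64-fold lower), -0.27 (-0.41 to -0.13) for PDGFB-NLS over Control and 0.45 (0.18 to 0.72) for PDGFB-NLS over PDGFB-WT. The order of the libraries was that of Ndrg1. Its paralog Bnip3l, which takes part in mitophagy too, had 122 CPM in PDGFB-WT, 137 CPM in PDGFB-NLS and 135 CPM in Control and ratios of 0.02, 0.04 and 0.03 in the same order.

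Hilpda, which encodes an inhibitor of lipolysis on lipid droplets, had 29.5 CPM in PDGFB-WT, 50.8 CPM in PDGFB-NLS and 52.1 CPM in Control. Its ratio was -0.65 (-0.97 to -0.35) for PDGFB-WT over Control (1.57-fold lower) and 0.64 (0.34 to 0.95) for PDGFB-NLS over PDGFB-WT (1.56-fold higher). A peak of 5.70 CPM next to the start was called only in Control, and the start peak alone held 29.5 CPM in PDGFB-WT, 50.8 CPM in PDGFB-NLS and 46.4 CPM in Control. PDGFB-WT was thus the low library with or without that peak. Vegfa, which encodes the main growth factor of blood vessels, had 36 CPM in PDGFB-WT, 39 CPM in PDGFB-NLS and 43.7 CPM in Control. Its ratios were -0.11 (-0.40 to 0.16) for PDGFB-WT over Control, -0.15 (-0.33 to 0.02) for PDGFB-NLS over Control and -0.03 (-0.31 to 0.26) for PDGFB-NLS over PDGFB-WT, each with an interval that spans 0. A far-end peak was not called in PDGFB-WT, and at the start peak alone Vegfa had 36 CPM in PDGFB-WT, 33.5 CPM in PDGFB-NLS and 40.3 CPM in Control. The start ratio of PDGFB-NLS over Control was -0.25 (-0.43 to -0.07), with an interval below 0.

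The collagen prolyl hydroxylase genes leaned the other way. P4ha1 had 121 CPM in PDGFB-WT, 123 CPM in PDGFB-NLS and 116 CPM in Control, nearly level across libraries. Its ratio was 0.23 (0.07 to 0.39) for PDGFB-WT over Control, 0.10 (-0.01 to 0.20) for PDGFB-NLS over Control and -0.12 (-0.28 to 0.04) for PDGFB-NLS over PDGFB-WT. P4ha2 had 17.3 CPM in PDGFB-WT, 21.1 CPM in PDGFB-NLS and 17.5 CPM in Control, highest in PDGFB-NLS. Its ratio was 0.15 (-0.27 to 0.56) for PDGFB-WT over Control and 0.28 (0.02 to 0.54) for PDGFB-NLS over Control. Ankrd37, which encodes a small ankyrin repeat protein, had 80.8 CPM in PDGFB-WT, 91.5 CPM in PDGFB-NLS and 98.8 CPM in Control. Ddit4, which encodes an inhibitor of mTORC1 signalling, had 139 CPM in PDGFB-WT, 133 CPM in PDGFB-NLS and 147 CPM in Control. The Ddit4 ratio for PDGFB-NLS over PDGFB-WT was -0.21 (-0.35 to -0.06), the lowest of the HIF targets there. Adm, which encodes the vasoactive peptide adrenomedullin, had 43.7 CPM in PDGFB-WT, 52.8 CPM in PDGFB-NLS and 53.4 CPM in Control, the larger share of it at the far end of the gene. The carbonic anhydrase genes had end peaks in PDGFB-NLS only, of 1.91 CPM (47 counts) for Car9 and 5.09 CPM (125 counts) for Car12, and were not compared. At its listed start Car12 also had 3.80 CPM (98 counts) in Control. Over gene body and flank regions called in all 3 libraries, ratios for PDGFB-NLS over Control were -0.05 (-0.23 to 0.12) for Car9 and 0.02 (-0.38 to 0.42) for Car12. Carbonic anhydrase IX is a widely used marker of hypoxic tumor cells.

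**Figure D2:**
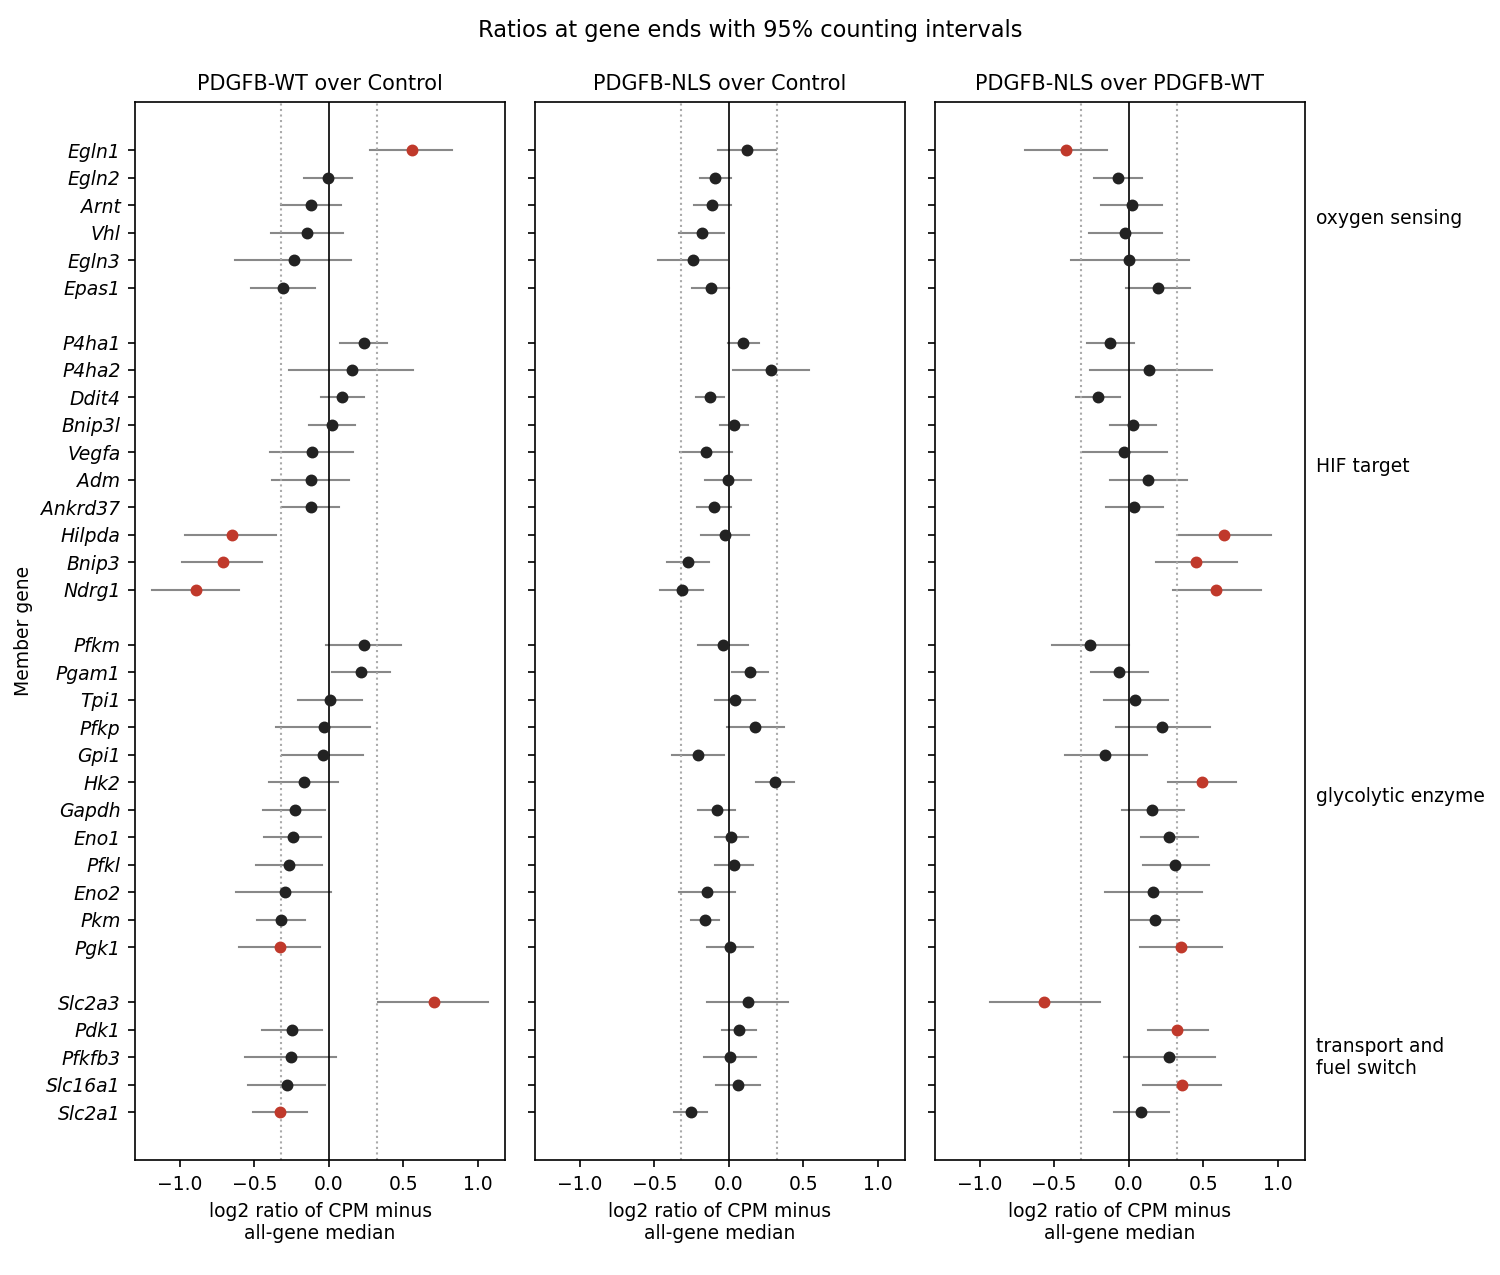
Log2 ratio of CPM at gene ends minus the all-gene median (points) with 95% counting intervals (bars), by role, for each member compared in all of PDGFB-WT over Control, PDGFB-NLS over Control and PDGFB-NLS over PDGFB-WT. Aldoa and Slc16a3, compared for PDGFB-NLS over Control only, are left out. Dotted lines mark the fold limit of 0.32. Ndrg1, Bnip3 and Hilpda lie farthest to the left for PDGFB-WT over Control, and no member passes a dotted line for PDGFB-NLS over Control.

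Of the 12 glycolytic enzymes compared at gene ends for PDGFB-WT over Control, 9 lay below the all-gene median. Over the gene body and 10 kb on either side the 15 enzymes had a median of 0.05, with 8 above and 7 below, so the lower values at gene ends were not matched there. Hk2, the inducible hexokinase gene, had 55 CPM in PDGFB-WT, 85.3 CPM in PDGFB-NLS and 69.4 CPM in Control, highest in PDGFB-NLS. Its ratio was -0.17 (-0.40 to 0.06) for PDGFB-WT over Control and 0.31 (0.18 to 0.44) for PDGFB-NLS over Control, the highest of the enzymes in that comparison and just inside the limit. Against PDGFB-WT the PDGFB-NLS ratio was 0.49 (0.27 to 0.72), or 1.40-fold higher. The start peak of Hk2 held 55 CPM in PDGFB-WT, 73.9 CPM in PDGFB-NLS and 57.5 CPM in Control, so at the start alone PDGFB-WT and Control were close. A second peak next to it held 11.4 CPM in PDGFB-NLS and 10.1 CPM in Control and was not called in PDGFB-WT, and a weak peak at the far end of the gene was called only in Control, with 1.75 CPM. Over the peak called in all 3 libraries the ratios of Hk2 were 0.08 (-0.15 to 0.31) for PDGFB-WT over Control, 0.38 (0.24 to 0.52) for PDGFB-NLS over Control, now past the limit, and 0.31 (0.08 to 0.54) for PDGFB-NLS over PDGFB-WT, now just inside it. Pgk1, which encodes the first ATP-yielding enzyme of the pathway, had 38.1 CPM in PDGFB-WT, 53.5 CPM in PDGFB-NLS and 53.6 CPM in Control, level between PDGFB-NLS and Control. The Pgk1 ratio was -0.33 (-0.61 to -0.06) for PDGFB-WT over Control, just past the limit, and 0.35 (0.08 to 0.63) for PDGFB-NLS over PDGFB-WT. Pkm, the pyruvate kinase gene, had 106 CPM in PDGFB-WT, 133 CPM in PDGFB-NLS and 149 CPM in Control. Its ratio was -0.32 (-0.48 to -0.16) for PDGFB-WT over Control, just inside the limit, and -0.16 (-0.25 to -0.06) for PDGFB-NLS over Control.

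The genes of phosphofructokinase, the committed step of glycolysis, did not share a direction. Pfkl had 57.2 CPM in PDGFB-WT, 78.5 CPM in PDGFB-NLS and 77.2 CPM in Control, with PDGFB-WT the low library. Pfkm had 47.3 CPM in PDGFB-WT, 43.6 CPM in PDGFB-NLS and 45.2 CPM in Control, with little difference between libraries. Its ratio was 0.23 (-0.02 to 0.48) for PDGFB-WT over Control and -0.26 (-0.51 to -0.0007) for PDGFB-NLS over PDGFB-WT. Pfkp had 29 CPM in PDGFB-WT, 37.5 CPM in PDGFB-NLS and 33.4 CPM in Control, again lowest in PDGFB-WT. Gpi1, the glucose phosphate isomerase gene, had 39.7 CPM in PDGFB-WT, 39.4 CPM in PDGFB-NLS and 45.8 CPM in Control. Its ratio was -0.21 (-0.38 to -0.03) for PDGFB-NLS over Control and -0.16 (-0.43 to 0.12) for PDGFB-NLS over PDGFB-WT. Pgam1, the phosphoglycerate mutase gene, had 82.2 CPM in PDGFB-WT, 87 CPM in PDGFB-NLS and 79.5 CPM in Control. With a ratio of 0.22 (0.02 to 0.41) it was one of the 3 enzymes above the all-gene median for PDGFB-WT over Control.

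The remaining enzymes stayed within the fold limit in each comparison. Tpi1, the triosephosphate isomerase gene, had 62.7 CPM in PDGFB-WT, 71.4 CPM in PDGFB-NLS and 70.01 CPM in Control. Gapdh, the glyceraldehyde phosphate dehydrogenase gene, had 64.8 CPM in PDGFB-WT, 79.9 CPM in PDGFB-NLS and 85.3 CPM in Control. The enolase genes differed in level, Eno1 being the widely expressed and Eno2 the neuronal form. Eno1 had 76.6 CPM in PDGFB-WT, 102 CPM in PDGFB-NLS and 102 CPM in Control. Eno2 had 27.7 CPM in PDGFB-WT, 34.2 CPM in PDGFB-NLS and 38.2 CPM in Control. Both were lowest in PDGFB-WT, with ratios over Control of -0.24 and -0.30. Over its start and far-end peaks, each called in all 3 libraries, the Eno2 ratio was -0.13 (-0.46 to 0.19). Aldoa, an aldolase gene, had 6.39 CPM in PDGFB-NLS and 5.55 CPM in Control and no called end peak in PDGFB-WT. Its ratio for PDGFB-NLS over Control was 0.22 (-0.24 to 0.67). Hk1 had an end peak only in PDGFB-NLS (32 counts) and Ldha had none in any library. The annotated ends of these genes lie away from the starts in use, which are taken up below.

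Among transport and fuel switch genes, Slc2a1, the glucose transporter gene known from the blood-brain barrier, had 82.8 CPM in PDGFB-WT, 97 CPM in PDGFB-NLS and 117 CPM in Control, highest in Control. Its ratio was -0.33 (-0.51 to -0.15) for PDGFB-WT over Control (1.26-fold lower), -0.26 (-0.36 to -0.15) for PDGFB-NLS over Control and 0.08 (-0.10 to 0.27) for PDGFB-NLS over PDGFB-WT. The endothelial marker sum was lowest in PDGFB-WT and highest in Control as well, and its part was not tested over whole libraries. Slc2a3, the neuronal glucose transporter gene, had 23.1 CPM in PDGFB-WT, 17.3 CPM in PDGFB-NLS and 15.9 CPM in Control. The ratio was 0.70 (0.33 to 1.07) for PDGFB-WT over Control, 0.13 (-0.14 to 0.40) for PDGFB-NLS over Control and -0.57 (-0.93 to -0.19) for PDGFB-NLS over PDGFB-WT. This end peak lies at chr6:122801019-122802139, at the outer end of a wide gene model (chr6:122727809-122802363), and a region inside the model at chr6:122742198-122743099 held 14.2 CPM in PDGFB-WT, 13.1 CPM in PDGFB-NLS and 13 CPM in Control. No start of Slc2a3 was listed, so it is not known here whether the end peak is at a start in use.

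Slc16a1, Pdk1 and Pfkfb3 were lowest in PDGFB-WT, and Slc16a3 depended on which of its peaks were called. Slc16a1, which encodes a lactate transporter, had 40.9 CPM in PDGFB-WT, 57.8 CPM in PDGFB-NLS and 55.9 CPM in Control. Its ratio was -0.28 (-0.55 to -0.03) for PDGFB-WT over Control and 0.35 (0.10 to 0.62) for PDGFB-NLS over PDGFB-WT. Slc16a3, which encodes the lactate exporter of glycolytic cells, had 10.8 CPM in PDGFB-WT, 23.5 CPM in PDGFB-NLS and 29.1 CPM in Control, with 73 counts in PDGFB-WT, under the minimum. Its start peak was not called in PDGFB-WT and held 15.9 CPM in PDGFB-NLS and 16.4 CPM in Control. The far-end peak called in all 3 held 10.8 CPM in PDGFB-WT, 7.61 CPM in PDGFB-NLS and 12.7 CPM in Control, lowest in PDGFB-NLS. The Slc16a3 ratio for PDGFB-NLS over Control was -0.30 (-0.51 to -0.08) over both peaks, -0.03 (-0.30 to 0.25) at the start and -0.72 (-1.09 to -0.35) at the far end, where it passed the limit. As Slc16a3 shares an end peak with Csnk1d, these values may not belong to Slc16a3 alone. Pdk1, which encodes a kinase that keeps pyruvate out of the mitochondrial cycle, had 71.7 CPM in PDGFB-WT, 99.4 CPM in PDGFB-NLS and 95.5 CPM in Control. Its ratio was -0.25 (-0.45 to -0.05) for PDGFB-WT over Control, 0.07 (-0.05 to 0.18) for PDGFB-NLS over Control and 0.33 (0.13 to 0.53) for PDGFB-NLS over PDGFB-WT. Pfkfb3, which encodes an activator of phosphofructokinase, had 30.5 CPM in PDGFB-WT, 40.7 CPM in PDGFB-NLS and 40.8 CPM in Control. Pfkfb4, a related gene, had 86 counts in PDGFB-NLS and 96 in Control and no called end peak in PDGFB-WT.

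Per kb of called peak, which allows genes to be compared, the members with an end peak stood at a median percentile of 54.4 in PDGFB-WT (34 members), 63.9 in PDGFB-NLS (39) and 62.9 in Control (37), among all genes with an end peak in that library. P4ha1 stood highest, at percentiles 97.2, 97.8 and 95.3 in PDGFB-WT, PDGFB-NLS and Control. Ankrd37, also high, stood at 87.3, 91.9 and 93.3 in the same order. Among members with a peak in all 3 libraries, Slc16a3 was low at 13.9, 27.4 and 32.2. The order of neighbours in such a ranking has no replicate spread to be judged by.

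Several members are read from starts that lie away from the annotated gene ends, so the starts listed in RefSeq were summed as an alternative chosen after the data were seen. Hif1a then had 93.5 CPM in PDGFB-WT, 92.7 CPM in PDGFB-NLS and 88.9 CPM in Control, level across libraries. Its ratio was 0.23 (0.05 to 0.41) for PDGFB-WT over Control, 0.08 (-0.04 to 0.19) for PDGFB-NLS over Control and -0.14 (-0.32 to 0.04) for PDGFB-NLS over PDGFB-WT. Ldha, the lactate dehydrogenase gene whose window carries the 7 motif matches printed above, had 61.4 CPM in PDGFB-WT, 61.8 CPM in PDGFB-NLS and 51.9 CPM in Control. It was higher in both PDGFB libraries than in Control, with ratios of 0.40 (0.17 to 0.62) for PDGFB-WT and 0.27 (0.12 to 0.42) for PDGFB-NLS, and -0.12 (-0.34 to 0.10) for PDGFB-NLS over PDGFB-WT. Hk1, the constitutive hexokinase gene, had 87.3 CPM in PDGFB-WT, 112 CPM in PDGFB-NLS and 108 CPM in Control. Aldoa had 103 CPM in PDGFB-WT, 102 CPM in PDGFB-NLS and 121 CPM in Control, with a ratio of -0.22 (-0.33 to -0.12) for PDGFB-NLS over Control, on the other side from its weak end peak. Pfkfb4 had 87.4 CPM in PDGFB-WT, 90.9 CPM in PDGFB-NLS and 106 CPM in Control. These are strong start regions in every library, unlike the weak end peaks of the same genes.

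The listed starts changed the level of other members too. Pfkfb3 had 119 CPM in PDGFB-WT, 161 CPM in PDGFB-NLS and 159 CPM in Control at its 2 starts, with a ratio of -0.26 (-0.41 to -0.11) for PDGFB-WT over Control. Slc2a1 had 71.6 CPM in PDGFB-WT, 88.1 CPM in PDGFB-NLS and 105 CPM in Control, with a ratio of -0.39 (-0.59 to -0.20) for PDGFB-WT over Control. Pfkp had 29 CPM in PDGFB-WT, 37.5 CPM in PDGFB-NLS and 44.4 CPM in Control, a ratio of -0.45 (-0.77 to -0.15) for PDGFB-WT over Control. Only its Control counts differed from those at gene ends, 1145 against 861. At gene ends the Pfkp ratio was -0.03 (-0.36 to 0.28), so its place among those lower here rests on counts added in Control alone. Adm had 15.6 CPM in PDGFB-WT, 12.5 CPM in PDGFB-NLS and 17.9 CPM in Control at its start, with a ratio of -0.51 (-0.79 to -0.22) for PDGFB-NLS over Control. Over 34 members with a listed start compared, the median for PDGFB-WT over Control was -0.13, and 2 were higher and 7 lower, against 13.6% and 11.5% of 9060 genes. The 35 members of PDGFB-NLS over Control had a median of -0.02 with 1 higher and 1 lower, against 11.1% and 5.73% of 10823 genes. The 34 of PDGFB-NLS over PDGFB-WT had 0.07 with 6 higher and 2 lower, against 10.6% and 10.4% of 9068 genes.

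Over the gene body and 10 kb on either side all 41 members were compared, and the medians lay close to those of other genes. They were -0.06 for PDGFB-WT over Control, -0.07 for PDGFB-NLS over Control and 0.01 for PDGFB-NLS over PDGFB-WT. For PDGFB-WT over Control 4 members (9.76%) were higher and 10 (24.4%) lower, against 16.2% and 16.5% of 14648 genes. Those higher were Ldha (0.62), Car12 (0.62), Egln3 (0.55) and Pfkm (0.55). The Pfkm sums take in a flank region within the neighbouring gene Asb8, described below, and at its gene ends the Pfkm ratio was 0.23 (-0.02 to 0.48). The 10 lower included Ndrg1 (-1.33), Slc16a3 (-1.29), Car9 (-0.73), Bnip3 (-0.71), Slc16a1 (-0.63), Hk2 (-0.56) and Slc2a1 (-0.45). Between PDGFB-NLS and Control 2 members were higher, Car12 (0.95) and Egln3 (0.35), and 1 was lower, Ndrg1 (-0.60), against 14.5% and 5.01% of 16634 genes. Against PDGFB-WT, PDGFB-NLS had 9 members higher and 3 lower, against 16.2% and 11.4% of 14659 genes. Slc16a3 (1.0), Ndrg1 (0.73) and Hk2 (0.73) were the highest of these, and Pfkm (-0.49), Slc2a3 (-0.33) and Ldha (-0.32) the lowest. By role, the medians for PDGFB-WT over Control were 0.02 for oxygen sensing, -0.11 for HIF targets, 0.05 for glycolytic enzymes and -0.20 for transport and fuel switch genes.

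These sums hold the peaks called in each library, and PDGFB-WT had fewer of them. The body of Hk2 held 2 peaks in PDGFB-WT, 10 in PDGFB-NLS and 9 in Control, that of Ndrg1 held 4 peaks in PDGFB-WT, 9 in PDGFB-NLS and 8 in Control and that of Slc16a3 held 3 peaks in PDGFB-WT, 7 in PDGFB-NLS and 7 in Control. The sums were therefore also taken over regions called in all 3 libraries, an alternative chosen after the data were seen. With these, 40 members compared for PDGFB-WT over Control had a median of -0.09 with 4 higher and 6 lower, against 17.7% and 8.67% of 14502 genes. Ndrg1 (-1.12), Bnip3 (-0.73), Slc16a3 (-0.67), Pgk1 (-0.41), Slc16a1 (-0.36) and Pkm (-0.35) were those lower. Slc2a1 was just inside the limit at -0.32 and Hk2 inside it at -0.20. Egln1 (0.61), P4ha2 (0.59), Ldha (0.54) and Pfkm (0.50) were those higher, and the Pfkm sum still held the region within Asb8. The Egln1 sum for PDGFB-WT still held the second peak that was not called in Control. Egln3 was inside the limit at 0.17. For PDGFB-NLS over Control 41 members had a median of -0.02 with 0 higher and 2 lower, Ndrg1 (-0.52) and Slc16a3 (-0.48), against 10.6% and 3.27% of 15744 genes. For PDGFB-NLS over PDGFB-WT 40 members had a median of 0.01 with 6 higher and 3 lower, against 7.01% and 12.3% of 14512 genes. Ndrg1 (0.61) was the highest and P4ha2 (-0.47) the lowest.

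Windows of this kind take in the peaks of neighbouring genes and of enhancers, and the end and the body of Egln3 differed in direction. Its end peak was lower in both PDGFB libraries than in Control, whereas a region in the gene body at chr12:54191682-54192658 held 21.2 CPM in PDGFB-WT, 19.99 CPM in PDGFB-NLS and 12.8 CPM in Control. The log2 ratio of that region was 0.77 (0.35 to 1.17) for PDGFB-WT over Control and 0.63 (0.34 to 0.92) for PDGFB-NLS over Control.

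The members' bodies and flanks held 314 of the 147229 regions. Of these, 153 (48.7%) were called in all 3 libraries, against 32.2% of all regions, and 84 (26.8%) in PDGFB-NLS and Control but not in PDGFB-WT, against 29.98%. PDGFB-WT alone had 2, PDGFB-NLS alone 39 and Control alone 30. Region ratios below are relative to the median of all common regions with at least 100 counts in both libraries compared.

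For PDGFB-WT over Control and for PDGFB-NLS over PDGFB-WT, start regions of the members lay on the other side of 0 from body regions. For PDGFB-WT over Control the 39 start regions had a median of -0.24, and 2 were higher and 15 lower by the fold limit, which is 5.13% and 38.5%. Start regions of all genes leaned the same way, with a median of -0.09 and 12% higher and 19.1% lower of 9372, while all 18425 common regions gave 27.2% and 16.3%. The members' 14 gene body regions had a median of 0.17 with 6 higher and 2 lower, and their 28 flank regions 0.01 with 8 higher and 3 lower. The 4 end regions of genes without a listed start had a median of -0.32, on the side of the start regions. The 41 start regions compared between PDGFB-NLS and Control had a median of -0.01 with 2 higher and 1 lower, against 11.5% and 7.48% of 11852 start regions of all genes. The median was below 0 at ends, bodies and flanks too in that comparison. The 46 body regions had -0.12 with 7 higher and 15 lower, against 18.9% and 13.4% of 38260 common regions. Between PDGFB-NLS and PDGFB-WT the 39 start regions had a median of 0.19 with 15 higher and 1 lower, against 16.7% and 8.94% of 9385 start regions and a median of 0.08 over those. The 14 body regions had -0.12 there with 2 higher and 4 lower, against 13.4% and 22.9% of 18640 common regions.

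**Figure D3:**
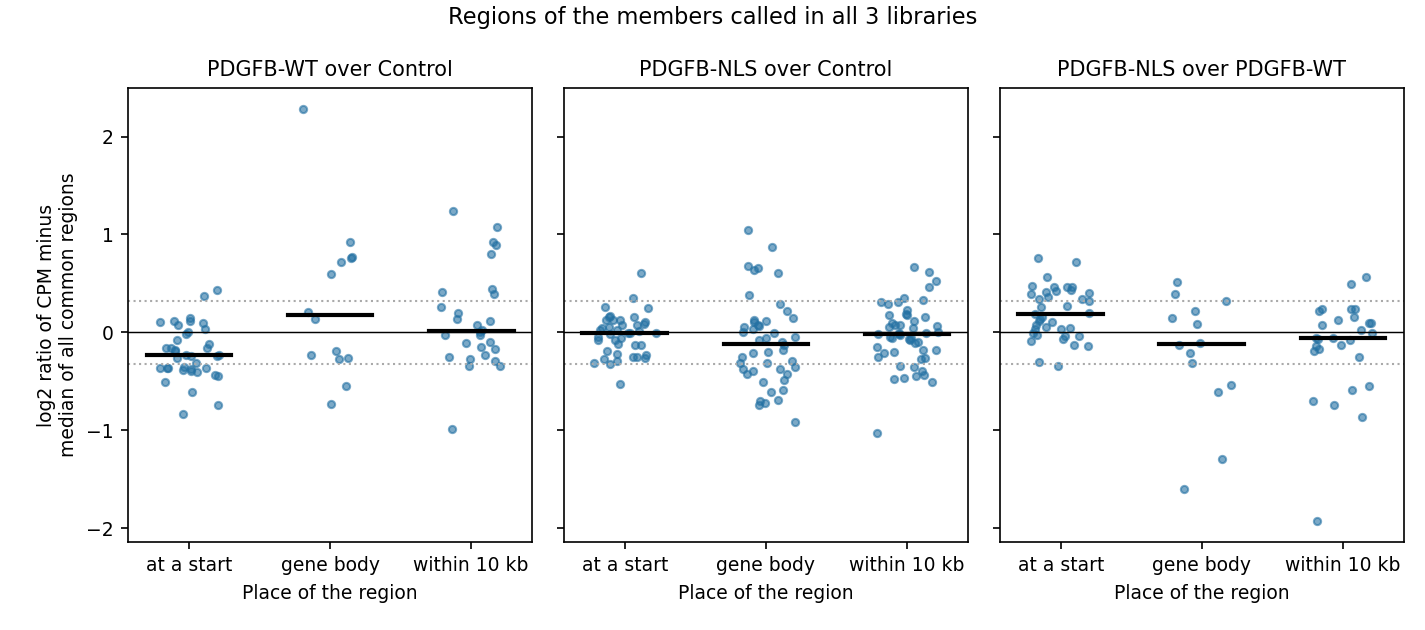
Log2 ratio of CPM, minus the median of all common regions, for each region of the members called in all 3 libraries, placed at a listed start, in the gene body or within 10 kb outside it; black bars are medians and dotted lines mark the fold limit of 0.32. Start regions sit below 0 for PDGFB-WT over Control (median -0.24) and above 0 for PDGFB-NLS over PDGFB-WT (0.19). Regions at the ends of the 4 genes without a listed start are left out.

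Past 2-fold there were few regions. For PDGFB-WT over Control 3 of 85 were higher and 1 lower, against 10.3% and 0.586% of all common regions. Between PDGFB-NLS and Control 1 of 144 was higher and 1 lower, against 2.29% and 0.429%. Between PDGFB-NLS and PDGFB-WT 0 of 85 were higher and 3 lower, against 0.252% and 3.99%. The farthest was inside Epas1, at chr17:86785279-86786596, with 30.4 CPM in PDGFB-WT, 10.2 CPM in PDGFB-NLS and 6.44 CPM in Control. Its ratios were 2.28 (1.86 to 2.71) for PDGFB-WT over Control, 0.66 (0.26 to 1.07) for PDGFB-NLS over Control and -1.60 (-1.98 to -1.21) for PDGFB-NLS over PDGFB-WT, highest in PDGFB-WT, whereas the Epas1 end peak was lowest there. In OPC-like nuclei this region held 54.9 CPM in PDGFB-WT, 28.1 CPM in PDGFB-NLS and 22 CPM in Control. Astrocyte-like nuclei held 30.2, 16.1 and 16.5 CPM in the same order, and microglia or macrophage-like nuclei held 2.38 CPM or less in each library. By these values PDGFB-WT was the high library within the OPC-like and the astrocyte-like class too. They rest on few counts and are given without intervals, and the OPC-like class of Control held 57 barcodes with 637541 counts in common regions.

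A region inside no member, in the flank of Pfkm and within the neighbouring gene Asb8 at chr15:98134370-98135279, held 33.6 CPM in PDGFB-WT, 18.8 CPM in PDGFB-NLS and 14.7 CPM in Control. Its ratio for PDGFB-WT over Control was 1.24 (0.91 to 1.57). It was open mainly in astrocyte-like nuclei, with 97.7 CPM in PDGFB-WT, 75.4 CPM in PDGFB-NLS and 75.6 CPM in Control, a narrower spread than over whole libraries. In the flank of Ldha, chr7:46837945-46838596 held 14.8 CPM in PDGFB-WT, 9.04 CPM in PDGFB-NLS and 7.25 CPM in Control, a ratio of 1.08 (0.58 to 1.56) for PDGFB-WT over Control. In the flank of P4ha2, chr11:54139852-54140881 held 33.9 CPM in PDGFB-WT, 9.08 CPM in PDGFB-NLS and 18.5 CPM in Control. Its ratio was -1.03 (-1.37 to -0.70) for PDGFB-NLS over Control and -1.93 (-2.32 to -1.54) for PDGFB-NLS over PDGFB-WT. That region was open mainly in nuclei of unnamed clusters, with 157 CPM in PDGFB-WT, 134 CPM in PDGFB-NLS and 229 CPM in Control. Ndrg1's end region at chr15:66969382-66970284 was the 1 lower by 2-fold in PDGFB-WT against Control, at -1.05 (-1.43 to -0.70). Hk1 had 2 body regions past 2-fold. That at chr10:62320231-62321221 was lower in PDGFB-NLS than in PDGFB-WT, at -1.30 (-1.82 to -0.76), and that at chr10:62355972-62357075 was higher in PDGFB-NLS than in Control, at 1.05 (0.65 to 1.46).

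Nuclei were grouped by clustering each library apart, and clusters were named from marker lists. In PDGFB-WT 25.7% of barcodes were OPC-like, 17.2% astrocyte-like, 30.7% microglia or macrophage-like and 26.4% unnamed. In PDGFB-NLS 13.1% were OPC-like, 26.2% astrocyte-like, 26% microglia or macrophage-like, 19.9% oligodendrocyte-like, 10.6% endothelial-like and 2.53% inhibitory neuron-like. In Control 2.56% were OPC-like (57 barcodes), 21.3% astrocyte-like, 22.7% microglia or macrophage-like, 16.2% oligodendrocyte-like, 20.9% endothelial-like and 5.66% mural or fibroblast-like. Depth differed between the libraries as given above, doublets were not removed, and the OPC-like cluster of PDGFB-WT had 1 OPC marker and 1 oligodendrocyte marker (Ugt8a) among its top 10 genes. No cluster of PDGFB-WT was named oligodendrocyte-like or endothelial-like, so those classes were compared between PDGFB-NLS and Control only.

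Over the gene body and 10 kb on either side, members were open in different classes. Endothelial-like nuclei had the highest CPM for 20 of the 41 members in PDGFB-NLS (48.8%), against 25.2% of 16999 genes with at least 100 counts. In Control they were highest for 13 (31.7%), against 23.7% of 16587 genes, and mural or fibroblast-like nuclei for another 13, against 16.3%. In PDGFB-WT, microglia or macrophage-like nuclei were highest for 19 members (46.3%), astrocyte-like for 16 (39%) and OPC-like for 6 (14.6%), against 52.3%, 21.5% and 26.3% of 14230 genes. Epas1 in endothelial-like nuclei had 326 (292 to 363) CPM in PDGFB-NLS and 391 (358 to 426) CPM in Control, with exact 95% Poisson intervals in parentheses. Slc2a1 in the same class had 305 (272 to 342) and 361 (329 to 395) CPM in that order. Both are genes known for their part in brain endothelium. Ndrg1 had 275 (255 to 296) CPM in oligodendrocyte-like nuclei of PDGFB-NLS and 389.8 (369 to 412) CPM in those of Control. In endothelial-like nuclei Ndrg1 had 159 CPM in PDGFB-NLS and 215 CPM in Control. Its level in astrocyte-like nuclei was 32.8 CPM in PDGFB-WT, 23.5 CPM in PDGFB-NLS and 11.4 CPM in Control, far below both.

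Other members stood out in microglia or macrophage-like and astrocyte-like nuclei. These sums too hold fewer called peaks in PDGFB-WT, so that library's levels are not set against the others by their intervals. Hk2 in microglia or macrophage-like nuclei had 155 (133 to 180.4) CPM in PDGFB-WT, 291 (275 to 308) CPM in PDGFB-NLS and 288 (273 to 303) CPM in Control. Its next highest named class in Control was mural or fibroblast-like, at 64.1 CPM. Pfkfb3 in microglia or macrophage-like nuclei had 307 CPM in PDGFB-WT, 399 CPM in PDGFB-NLS and 408 CPM in Control. The astrocyte-like level of Vegfa was 82 (63.2 to 104) CPM in PDGFB-WT, 134 (121 to 149) CPM in PDGFB-NLS and 167 (151 to 184) CPM in Control. Over regions called in all 3 libraries, relative to the all-gene median of the class, the Vegfa ratio in astrocyte-like nuclei was -0.75 (-1.16 to -0.37) for PDGFB-WT over Control, -0.39 (-0.61 to -0.17) for PDGFB-NLS over Control and 0.37 (-0.02 to 0.77) for PDGFB-NLS over PDGFB-WT. The Hk2 ratio in microglia or macrophage-like nuclei was -0.43 (-0.67 to -0.19) for PDGFB-WT over Control and -0.09 (-0.23 to 0.05) for PDGFB-NLS over Control in such regions. Pfkm in astrocyte-like nuclei had 189 CPM in PDGFB-WT, 153 CPM in PDGFB-NLS and 152 CPM in Control, the highest of the named classes in each library. These sums include the flank region within Asb8 described above, which was itself open mainly in astrocyte-like nuclei, so they are not levels of Pfkm alone.

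**Figure D4:**
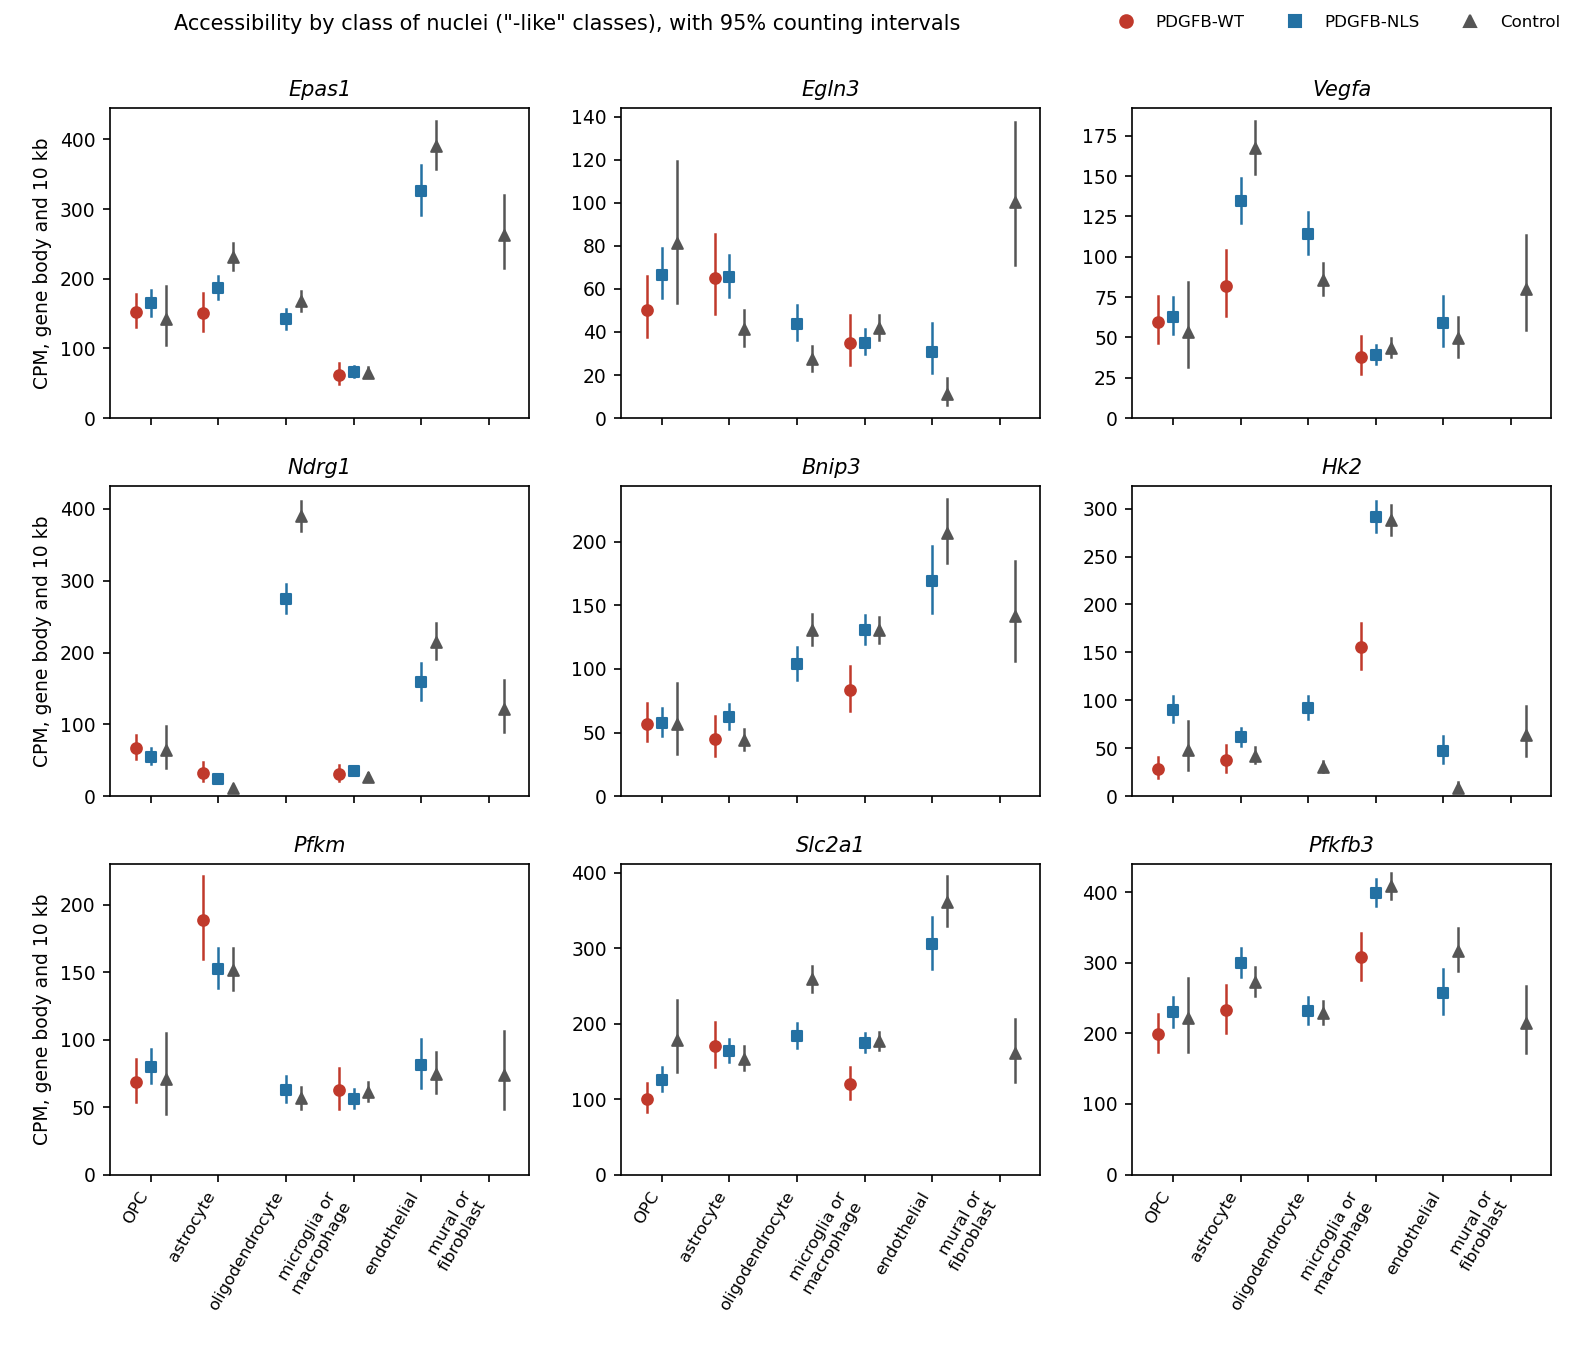
CPM over the gene body and 10 kb on either side for 9 members in each named class of nuclei except inhibitory neuron-like, with exact 95% Poisson intervals as bars, by library. Ndrg1 is highest in oligodendrocyte-like nuclei, Epas1 and Slc2a1 in endothelial-like nuclei and Hk2 in microglia or macrophage-like nuclei, in each library that holds the class.

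Within classes, ratios at gene ends were taken relative to the all-gene median of the class, for genes with at least 50 counts in both libraries. In microglia or macrophage-like nuclei, the class with the most counts in PDGFB-WT, 29 members had a median of -0.13 for PDGFB-WT over Control, and 6 were higher and 6 lower by the fold limit, against 13.4% and 17.5% of 9125 genes. Hilpda had 39.97 CPM in PDGFB-WT against 74.6 CPM in Control nuclei, a log2 ratio of -0.92 (-1.41 to -0.46). Bnip3 had 46.2 CPM in PDGFB-WT against 74.1 CPM in Control nuclei, a log2 ratio of -0.70 (-1.16 to -0.27). Hk2 had 102 CPM in PDGFB-WT against 142 CPM in Control nuclei, a log2 ratio of -0.49 (-0.80 to -0.20). Over regions called in all 3 libraries the ratio was -0.75 (-1.24 to -0.28) for Hilpda and -0.72 (-1.18 to -0.29) for Bnip3, both low in PDGFB-WT in this class as over the whole libraries. That of Hk2 was -0.22 (-0.53 to 0.08) there, inside the limit, as its second peak was not called in PDGFB-WT and is left out. On the other side, Ddit4 had 146 CPM in PDGFB-WT against 100.4 CPM in Control nuclei, a log2 ratio of 0.52 (0.25 to 0.78). Egln1 had 37.6 CPM in PDGFB-WT against 23.5 CPM in Control nuclei, a log2 ratio of 0.66 (0.11 to 1.18), with its second peak included. P4ha1 and Pgam1 were higher as well, with ratios of 0.39 and 0.48. The 12 microglia or macrophage markers summed to 1194 CPM in these nuclei in PDGFB-WT, 1787 CPM in PDGFB-NLS and 1965 CPM in Control, and the part of that difference in these results was not tested.

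Between PDGFB-NLS and Control the same class gave 34 members with a median of 0.02, and 3 higher and 2 lower, against 7.05% and 8.12% of 12046 genes. Egln3 had 18.9 CPM in PDGFB-NLS against 32.4 CPM in Control nuclei, a log2 ratio of -0.79 (-1.20 to -0.39), the lowest of them. Ndrg1 had 25.8 CPM in PDGFB-NLS against 16.7 CPM in Control nuclei, a log2 ratio of 0.62 (0.20 to 1.04), a direction opposite to that over the whole libraries, or 0.36 (-0.08 to 0.79) over regions called in all 3 libraries. Between PDGFB-NLS and PDGFB-WT 29 members had a median of 0.02, and 5 were higher and 1 lower, against 17.9% and 12.5% of 9119 genes. Hilpda had 69.3 CPM in PDGFB-NLS against 39.97 CPM in PDGFB-WT nuclei, a log2 ratio of 0.82 (0.35 to 1.31). Bnip3 had 79.1 CPM in PDGFB-NLS against 46.2 CPM in PDGFB-WT nuclei, a log2 ratio of 0.80 (0.36 to 1.26). Both stood on the same side in these nuclei as in the whole libraries.

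In astrocyte-like nuclei 25 members had a median of -0.05 for PDGFB-WT over Control, and 5 were higher and 5 lower, against 20.9% and 17.6% of 7510 genes. Vegfa had 38 CPM in PDGFB-WT against 71.6 CPM in Control nuclei, a log2 ratio of -0.75 (-1.35 to -0.20). Epas1 had 85.2 CPM in PDGFB-WT against 133 CPM in Control nuclei, a log2 ratio of -0.48 (-0.88 to -0.10). For PDGFB-NLS over Control 31 members had a median of -0.06, with 4 higher and 2 lower, against 14.6% and 9.91% of 11125 genes. Vegfa had 56.2 CPM in PDGFB-NLS against 71.6 CPM in Control nuclei, a log2 ratio of -0.37 (-0.70 to -0.05), so in this class it was below Control in both PDGFB libraries. Ankrd37 had 63.6 CPM in PDGFB-NLS against 89.8 CPM in Control nuclei, a log2 ratio of -0.52 (-0.82 to -0.23). Hk2 had 49.6 CPM in PDGFB-NLS against 30.4 CPM in Control nuclei, a log2 ratio of 0.68 (0.27 to 1.10). For PDGFB-NLS over PDGFB-WT 25 members had a median of -0.03, with 2 higher and 7 lower, against 13.8% and 16.8% of 7510 genes.

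OPC-like nuclei of Control were few, and 9 members could be compared with them. For PDGFB-WT over Control their median was -0.21, with 0 higher and 3 lower, against 15.1% and 17.8% of 2519 genes. Pdk1 had 43.6 CPM in PDGFB-WT against 100.4 CPM in Control nuclei, a log2 ratio of -1.08 (-1.76 to -0.40). Slc2a1 had 71.5 CPM in PDGFB-WT against 129 CPM in Control nuclei, a log2 ratio of -0.73 (-1.29 to -0.15). For PDGFB-NLS over Control the 9 had a median of 0.01, with 1 higher and 1 lower, against 11.9% and 14% of 2523 genes. Between PDGFB-NLS and PDGFB-WT, 30 members had a median of 0.19 in OPC-like nuclei, and 10 were higher and 2 lower, against 16.6% and 15% of 9327 genes. Hk2 had 68.8 CPM in PDGFB-NLS against 27.4 CPM in PDGFB-WT nuclei, a log2 ratio of 1.29 (0.70 to 1.92). The second peak of Hk2 was not called in PDGFB-WT, so only the PDGFB-NLS sum holds it. The microglia or macrophage markers summed to 266 CPM in OPC-like nuclei of PDGFB-NLS and 204 CPM in those of PDGFB-WT. Of the 12 markers, 8 were above 0 in PDGFB-WT, and their part was not tested. Pdk1 had 93.9 CPM in PDGFB-NLS against 43.6 CPM in PDGFB-WT nuclei, a log2 ratio of 1.07 (0.60 to 1.57). Slc16a1 had 70.1 CPM in PDGFB-NLS against 40.2 CPM in PDGFB-WT nuclei, a log2 ratio of 0.77 (0.27 to 1.29). Pfkp had 47.5 CPM in PDGFB-NLS against 26.9 CPM in PDGFB-WT nuclei, a log2 ratio of 0.78 (0.17 to 1.44). Hk2, Pdk1, Slc16a1 and Pfkp were picked from the 10 higher after their values were seen. Egln1 was on the other side, with 33 CPM in PDGFB-NLS against 51.4 CPM in PDGFB-WT nuclei, a log2 ratio of -0.67 (-1.22 to -0.13). At gene ends in regions called in all 3 libraries, the members' median in this comparison was 0.16. There 11 were higher and 2 lower, against 15.5% and 14.7% of 9272 genes. Over the gene body and 10 kb on either side, 39 members had a median of 0.03. By that measure 5 were higher and 1 lower, against 19.9% and 14.9% of 13386 genes.

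In oligodendrocyte-like nuclei, 33 members had a median of -0.02 for PDGFB-NLS over Control, and 4 were higher and 3 lower, against 17.5% and 13.8% of 11369 genes. Hk2 had 74.2 CPM in PDGFB-NLS against 27.2 CPM in Control nuclei, a log2 ratio of 1.48 (1.11 to 1.85). This was the largest ratio of any member in any class compared. The microglia or macrophage markers, the class where Hk2 was most open, summed to 223 CPM in oligodendrocyte-like nuclei of PDGFB-NLS and 154 CPM in those of Control, and their part was not tested. Bnip3 had 50.3 CPM in PDGFB-NLS against 84.6 CPM in Control nuclei, a log2 ratio of -0.72 (-1.03 to -0.41). Ndrg1 had 119.7 CPM in PDGFB-NLS against 152 CPM in Control nuclei, a log2 ratio of -0.31 (-0.52 to -0.10), on the same side as over the whole libraries. In endothelial-like nuclei 30 members had a median of 0.01, with 2 higher and 0 lower, against 13.8% and 12.7% of 9126 genes.

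**Figure D5:**
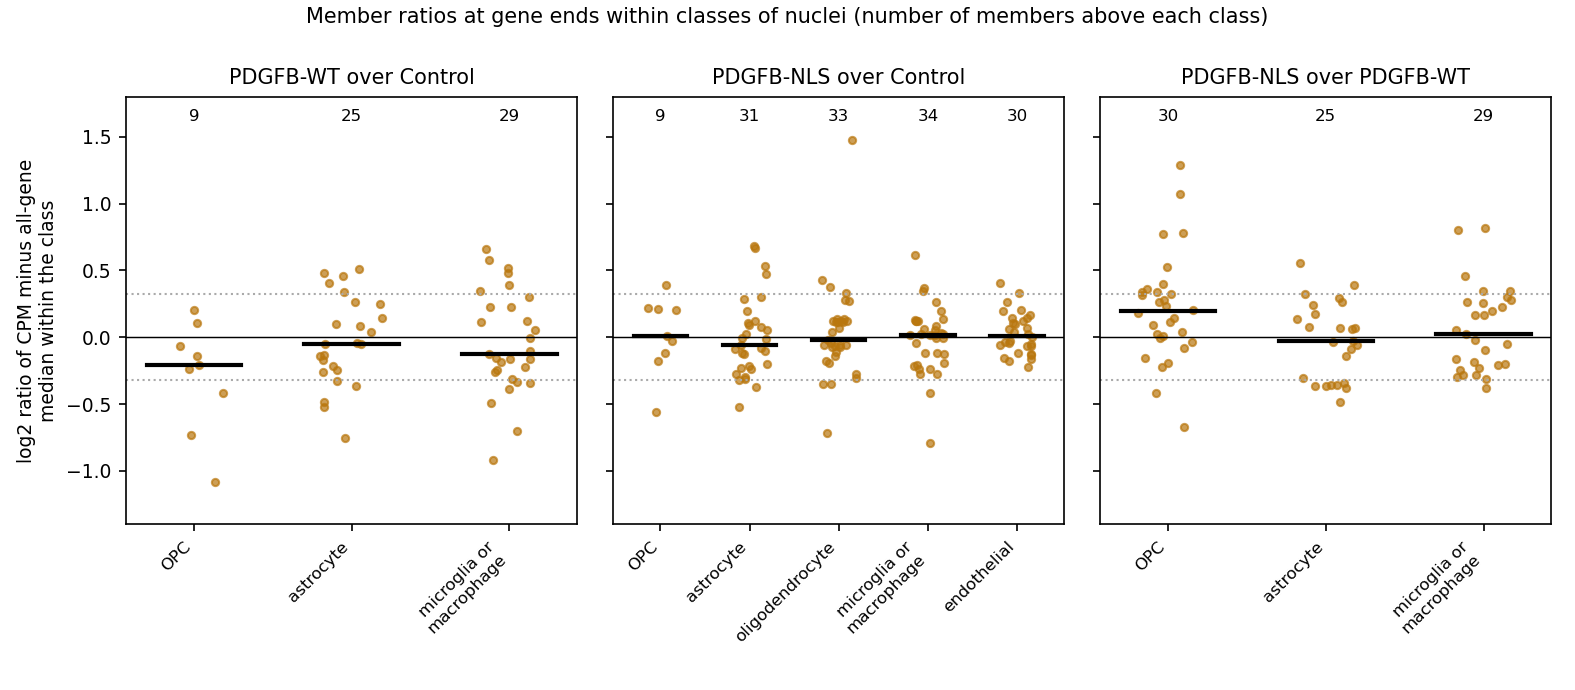
Log2 ratio of CPM at gene ends, minus the all-gene median of the class, for the members compared in each class of nuclei and comparison (1 point per member); black bars are medians and dotted lines mark the fold limit of 0.32. Hk2 in oligodendrocyte-like nuclei is the highest point for PDGFB-NLS over Control, at 1.48.

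Other genes of these pathways, 52 in number and listed by name, did not lean the way of the members. For PDGFB-WT over Control 35 were compared at gene ends with a median of 0.07, and 27 lay above and 8 below the all-gene median, with 3 higher (8.57%) and 0 lower by the fold limit, against 14.1% and 11.8% of all genes. Over regions called in all 3 libraries 21 lay above and 14 below. Rora, a nuclear receptor gene that responds to hypoxia, had 20.9 CPM in PDGFB-WT, 18 CPM in PDGFB-NLS and 11.7 CPM in Control, a ratio of 1.0 (0.58 to 1.41). Hif3a, which encodes an alpha subunit that can restrain the others, had 29.5 CPM in PDGFB-WT, 17.1 CPM in PDGFB-NLS and 21.3 CPM in Control, a ratio of 0.64 (0.30 to 0.97). Ldhb, the other lactate dehydrogenase gene, had 38.4 CPM in PDGFB-WT, 29.3 CPM in PDGFB-NLS and 29.6 CPM in Control, a ratio of 0.54 (0.25 to 0.83). All of these were highest in PDGFB-WT. Ero1a, which encodes an oxidase of the endoplasmic reticulum, was the lowest, at -0.21 (-0.52 to 0.08).

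Compared between PDGFB-NLS and Control, 42 of the 52 had a median of -0.01, with 1 higher and 2 lower, against 12.4% and 6.38% of all genes. Rora was highest at 0.63 (0.33 to 0.93), followed by the heme oxygenase gene Hmox1 at 0.23 (0.05 to 0.42). Ero1a was lowest at -0.40 (-0.59 to -0.21), followed by the endothelial receptor gene Flt1 at -0.35 (-0.60 to -0.10). Compared between PDGFB-NLS and PDGFB-WT, 35 had a median of -0.06, with 0 higher and 6 lower (17.1%), against 10.9% and 11% of all genes. Hif3a was lowest at -0.93 (-1.27 to -0.58) and Ldhb next at -0.53 (-0.82 to -0.24), while Mif, which encodes a cytokine, was highest at 0.20 (-0.08 to 0.48) and Tfrc next at 0.14 (-0.09 to 0.38). Rora, Bhlhe40, Aldoc and Selenbp1 were the other 4 lower.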

How the data were processed

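Single-cell ATAC-seq was measured in 3 libraries, 1 each of PDGFB-WT, PDGFB-NLS and Control. The deposited files hold, for each library, the authors' raw, unscaled counts of each barcode in each peak. They were made with cellranger-atac 2.1.0 per the file headers, and Cell Ranger 8 and mm10 per the submitters' processing notes. The value 2 made up 89.4%, 87.9% and 72.9% of entries in PDGFB-WT, PDGFB-NLS and Control, so intervals were computed on fragments, (count + 1) // 2. How peaks and nuclei were called is not given in the labels or files. A barcode needed at least 200 counts, which left 7008951, 31177621 and 31588784 counts in the same order. Counts in the 47450 regions called in all 3 libraries (96.3%, 78.8% and 81.6% of counts) set the scale of CPM.

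Positions of genes were taken from RefSeq on GRCm38.p6. Genes with at least 100 counts in both libraries were compared, as log2 ratios relative to the all-gene median, with exact 95% intervals (Clopper-Pearson on the conditional binomial). The median interval half-width was 0.24 for PDGFB-WT over Control and 0.15 for PDGFB-NLS over Control. Intervals cover counting error only, since each group was 1 library, and they treat fragments as independent. Every member with a peak is given with its CPM, and ratios with intervals for the 2 highest and 2 lowest members of each role in each comparison and for Hif1a, Epas1, Vegfa, Slc2a1, Hk2, Ldha and Egln3. Of the 52 other genes, the 2 highest and 2 lowest were named, except 1 that is not reported here; single regions, genes within classes and body values were chosen after their values were seen. The 41 members, the lists and the tests were chosen with earlier results of these data known.

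Barcodes were clustered in each library apart (peaks in at least 1% of barcodes, term frequency and inverse document frequency, 30 components, 15 neighbours, Leiden at resolution 0.6), and clusters were named from marker lists, with thresholds set after the data were seen. Doublets were not removed. Python 3.11.15, numpy 2.4.6, pandas 2.3.3, scipy 1.17.1, scikit-learn 1.9.0, igraph 0.11.9 and leidenalg 0.10.2 were used, and the ratio code was tested on simulated data. Alternatives changed the window, the scale, the barcode filter, the minimum count, the weighting and the fold limit.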

Additional observations from a re-analysis of the deposited data

How the results depend on the processing

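The median of the members at gene ends kept its side of 0 under all 18 settings for PDGFB-WT over Control (-0.31 to -0.11) and for PDGFB-NLS over PDGFB-WT (0.06 to 0.27), and ran from -0.10 to 0.01 for PDGFB-NLS over Control. Over gene bodies it ran from -0.29 to -0.01, from -0.03 to 0.26 and from -0.08 to -0.02 in the same order. Counts of members past the fold limit were small and moved. They are given as higher and lower, beside 2 and 5 for PDGFB-WT over Control, 0 and 0 for PDGFB-NLS over Control and 7 and 2 for PDGFB-NLS over PDGFB-WT. With common regions only, PDGFB-NLS over Control had 1 and 2. Per kb of peak, PDGFB-WT over Control had 5 higher, PDGFB-NLS over Control 4 and 5, and PDGFB-NLS over PDGFB-WT 5 lower. The peak lengths called per library entered there, and reversed Egln1 for PDGFB-WT over Control (-0.52) and Hk2 (-0.20) and Pdk1 (-0.67) for PDGFB-NLS over PDGFB-WT. Counted as fragments, PDGFB-WT over Control had 1 and 3 and PDGFB-NLS over PDGFB-WT 1 lower. Counted once per barcode and peak, PDGFB-NLS over Control had 1 and 2 and PDGFB-NLS over PDGFB-WT 1 lower. With barcodes of at least 1000 counts, PDGFB-WT over Control had 1 and 11 and PDGFB-NLS over PDGFB-WT 1 lower. Without the 5% deepest barcodes PDGFB-WT over Control had 8 lower. With each barcode weighted equally it had 4 and 8, and PDGFB-NLS over Control 4 and 2. A minimum of 300 counts, which leaves fewer genes, gave 0 and 2 for PDGFB-WT over Control and 3 and 0 for PDGFB-NLS over PDGFB-WT. Without taking off the all-gene median, PDGFB-WT over Control had 16 lower, PDGFB-NLS over Control 1 lower and PDGFB-NLS over PDGFB-WT 12 and 1. A window of 500 bp gave 1 higher for PDGFB-WT over Control and 1 and 1 for PDGFB-NLS over Control, and 2000 bp gave 2 lower for PDGFB-NLS over Control. The end with more counts alone gave 8 lower for PDGFB-WT over Control and 1 and 1 for PDGFB-NLS over Control. The start end alone gave 1 higher for PDGFB-WT over Control and 1 and 1 for PDGFB-NLS over Control, as did the added listed starts for PDGFB-NLS over Control. A limit of 1.5-fold gave 1 and 3 for PDGFB-WT over Control and 2 and 0 for PDGFB-NLS over PDGFB-WT. The cause of these moves was not tested. Among single named genes, 768 of the planned values moved by less than their interval, 44 moved by more and 3 reversed. The 11 medians within classes moved by at most 0.051 at resolutions 0.3 and 1, and 2 that lie near 0 changed sign: in endothelial-like nuclei the median for PDGFB-NLS over Control was -0.022 and -0.010 against 0.010, and in microglia or macrophage-like nuclei that for PDGFB-NLS over PDGFB-WT was -0.0065 at 0.3 against 0.021. No paired analysis was possible because each group has 1 library. Depth limits PDGFB-WT most: a member near 100 counts there cannot show a difference at the fold limit, and classes of nuclei less still.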
